A study of Mus musculus with 15 samples.

Results

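This report describes 10 cytokine genes in PDA30364 tumors: the interleukin-1 family genes Il1a, Il1b, Il1rn, Il18 and Il33, the colony stimulating factor genes Csf1, Csf2 and Csf3, and the genes of leukemia inhibitory factor (Lif) and tumor necrosis factor (Tnf). They were listed by name, with no measured value in the rule, and each gene was read from the probe set that carried its symbol alone and had the highest mean signal over the 15 arrays. The list was chosen with earlier results of these data known. Shares of members called, set beside those of all genes, are therefore descriptions and not independent support. They are 10 of the 18193 genes read in this way. PDA30364 is a mouse pancreatic ductal adenocarcinoma (PDA) line. In every group, cells had been inoculated subcutaneously into the flank of C57BL/6-Ly5.1 mice aged 6 to 12 weeks, and tumors were taken on day 26. Control tumors (labelled Ctrl, n = 4) came from mice given vehicle and control IgG, CD40 Ab tumors (CD40, n = 4) from mice given vehicle and an agonist antibody (Ab) against CD40, MEKi tumors (n = 3) from mice given the MEK inhibitor GDC-0623 at 30 mg/kg per day and control IgG, and combination tumors (MEKi+CD40, n = 4) from mice given both agents. Antibodies were given on days 3, 5 and 7 of treatment and once more on the day preceding analysis. Each array holds RNA of a piece of 1 snap-frozen tumor, grown from a single grafted line, so tumor cells, infiltrating cells and neighboring tissue are read together.

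Interleukin-1 alpha and beta are inflammatory cytokines that act through the receptor IL1R1 and its partner IL1RAP, and the antagonist encoded by Il1rn occupies the same receptor without signaling. Interleukin-1 beta and interleukin-18 are made as inactive precursors and cut by caspase-1 in the inflammasome, whereas interleukin-33 is held in the nucleus of epithelial and stromal cells and acts when it is released. The colony stimulating factors drive growth and survival of macrophages and granulocytes, leukemia inhibitory factor belongs to the interleukin-6 family, and tumor necrosis factor, like interleukin-1, switches on genes through NF-kB. MEK, the kinase blocked by GDC-0623, activates ERK, and CD40 is an activating receptor on antigen-presenting cells.

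The stretches before the transcription start of 5 members whose signals moved in tumors with MEKi are printed here, 250 bases each, 5′ to 3′ along the gene's own strand, from RefSeq on build GRCm38.p6. Capitals mark matches, on either strand, to any of the 4 motifs searched. These were an NF-kB form of 10 bases (in order 3 guanines, any pair of bases, 3 thymines and 2 cytosines), the AP-1 letters TGANTCA, the STAT letters TTCNNNGAA and the box read as TATAAA. They lie at chr2:129371140-129371389 (minus strand, Il1b), chr17:35202008-35202257 (minus, Tnf), chr3:107760470-107760719 (minus, Csf1), chr9:50554450-50554699 (plus, Il18) and chr19:29945540-29945789 (plus, the second of 2 starts listed for Il33).
Il1b: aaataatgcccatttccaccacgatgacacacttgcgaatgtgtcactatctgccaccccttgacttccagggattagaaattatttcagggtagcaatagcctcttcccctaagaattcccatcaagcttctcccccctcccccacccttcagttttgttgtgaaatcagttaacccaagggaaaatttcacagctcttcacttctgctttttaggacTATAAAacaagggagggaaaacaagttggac
Tnf: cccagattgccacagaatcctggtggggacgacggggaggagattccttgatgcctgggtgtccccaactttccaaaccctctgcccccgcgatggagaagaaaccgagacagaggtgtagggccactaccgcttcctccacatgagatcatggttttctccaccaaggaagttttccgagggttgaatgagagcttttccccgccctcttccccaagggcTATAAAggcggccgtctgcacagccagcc
Csf1: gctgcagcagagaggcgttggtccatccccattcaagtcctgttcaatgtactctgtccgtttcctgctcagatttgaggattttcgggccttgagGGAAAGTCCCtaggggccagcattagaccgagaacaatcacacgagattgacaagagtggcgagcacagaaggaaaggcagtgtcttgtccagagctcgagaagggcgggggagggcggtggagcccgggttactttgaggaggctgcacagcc
Il18: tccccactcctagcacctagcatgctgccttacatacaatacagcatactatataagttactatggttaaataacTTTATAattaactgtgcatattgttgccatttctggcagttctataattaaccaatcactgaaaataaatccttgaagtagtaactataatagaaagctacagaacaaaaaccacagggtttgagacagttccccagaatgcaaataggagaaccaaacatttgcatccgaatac
Il33: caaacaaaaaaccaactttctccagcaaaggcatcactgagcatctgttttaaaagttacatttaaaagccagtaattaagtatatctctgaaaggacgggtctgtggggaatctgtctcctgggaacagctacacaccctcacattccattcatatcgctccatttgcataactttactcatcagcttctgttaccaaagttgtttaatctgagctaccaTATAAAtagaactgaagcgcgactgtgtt
TATAAA began 31 bases before the start in Il1b, 32 bases before it in Il1a (not printed), 29 bases before it in Tnf and 29 bases before the second start of Il33. The first Il33 start had it 203 bases before, and Il18 had it on the opposite strand, 175 bases before. TATAAA was present in 12.4% of the 32851 stretches of this length in the table. The NF-kB form was found in Csf1, on the opposite strand and 154 bases before the start, and 51 bases before the third of 3 starts of Il1rn. It was present in 1.41% of all stretches. AP-1 letters (6.75% of all) lay in the stretches of Il1a, Il1rn and Lif, and the STAT letters (7.02%) in none of the members. No stretch for Csf3 was in the table. A match is a description of these letters and not a binding site.

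Arrays were similar in signal range, with medians of all probe sets from 5.16 to 5.24 on the log2 scale. Markers of other cells differed between groups in mean log2 signal, and in bulk RNA more cells of a type and more RNA per cell cannot be told apart. Skeletal muscle markers lay at 4.51 to 7.48 in control, 4.52 to 6.75 in CD40 Ab, 8.00 to 11.05 in MEKi and 8.46 to 10.3 in combination tumors. The mean level of the skin keratinocyte markers was highest in MEKi (5.67 to 6.77) and lowest in combination tumors (4.69 to 4.97). CD40 Ab replicate 3 stood at 6.65. Of the 9 measured, 4 were higher in MEKi than in control tumors, Krt5 (log2 fold change 2.54), Trp63 (2.45), Krt14 (1.75) and Krt15 (1.67). Krtdap (1.39), Krt1 (0.78) and Krt10 (0.12) did not pass, and Ivl (-0.27) and Flg (-0.02) did not rise. Whether skin or tumor cells gave these signals was not tested. Granulocyte markers ranged from 5.07 to 5.41 in control, 5.35 to 5.87 in CD40 Ab, 6.31 to 6.64 in MEKi and 5.64 to 6.29 in combination tumors. Of the 7 measured, 4 were higher in MEKi than in control tumors, S100a8 (log2 fold change 2.71), S100a9 (2.57), Cxcr2 (1.10) and Mmp8 (0.75). Camp (-0.07) and Ngp (-0.03) did not rise, and Ltf (1.42) did not pass. By flow cytometry, the study reported that MEKi lowered the number of granulocytic cells in PDA30364 tumors. Macrophage markers averaged 8.51 in control, 9.09 in CD40 Ab, 8.82 in MEKi and 9.39 in combination tumors. Fibroblast markers averaged 9.65 in control, 9.54 in CD40 Ab, 11.72 in MEKi and 10.39 in combination tumors. Mast cell markers averaged 5.65, 5.51, 7.18 and 5.39 in the same order. In MEKi against control, 8 of 8 fibroblast and 3 of 5 mast cell markers were higher (10.7% of all genes). The part of both in the cytokine signals was not tested. All 8 markers of epithelial tumor cells were measured above the array median in at least 1 array. Their level ranged from 10.73 to 11.18 in control, 10.73 to 11.38 in CD40 Ab, 11.34 to 11.755 in MEKi and 11.20 to 11.41 in combination tumors. Against control, Epcam (2.81 and 2.03) and Muc1 (1.28 and 0.885) were higher in MEKi and combination tumors. Sox9 (-0.54) was lower in MEKi tumors, and no other of the 8 passed in these comparisons. The animal numbers fell into a lower series of 9 and an upper series of 6 mice. The combination tumors were all of the lower series and the MEKi tumors all of the upper one, whereas control tumors were split 3 to 1 and CD40 Ab tumors 2 to 2.

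**Figure D1:**
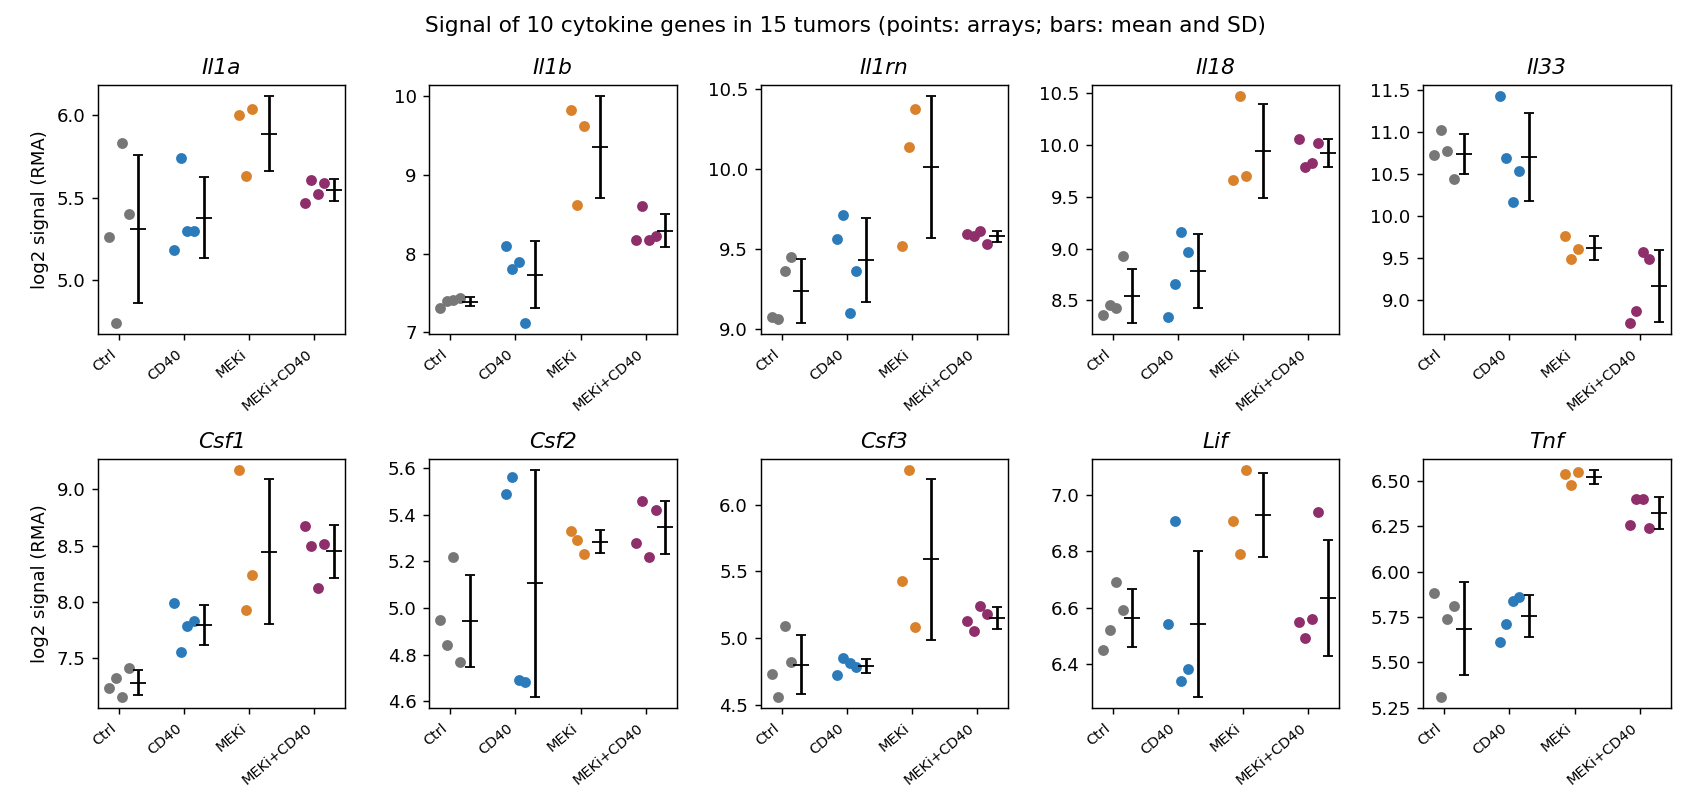
Log2 signal of the 10 genes (y axis, 1 panel per gene, each with its own range) in control, CD40 Ab, MEKi and combination tumors (x axis). Points are arrays, and black bars give the mean and SD of each group. Il1b, Il18, Csf1 and Tnf were higher in all tumors with MEKi than in all controls, and Il33 was lower in all of them.

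The effect of each agent and of both was asked by comparing treated tumors with control. In MEKi tumors, 7 of the 10 cytokine genes passed the threshold (adjusted p of 0.05 in limma), against 21.1% of all genes. The 6 genes Il1b, Il1rn, Il18, Csf1, Lif and Tnf were higher (10.7% of all genes) and 1, Il33, was lower (10.4%). The median log2 fold change (log2 FC) of the 10 was 0.78, beside -0.04 for all genes, and 8 of them did not overlap between groups, against 35.7% of all genes. In combination tumors 7 of 10 passed as well, against 19.0% of all genes. The 6 genes Il1b, Il1rn, Il18, Csf1, Csf2 and Tnf were higher (10.3% of all genes) and 1, Il33, was lower (8.72%), with a median of 0.38 beside -0.04, and 6 of 10 did not overlap between groups (26.8% of all genes). Both comparisons share the 4 control arrays. With the animal number series as a covariate in the MEKi and control arrays alone, a fit that rests on 1 control tumor in the upper series, 0 of 10 passed for MEKi. With the series as a covariate in all 15 arrays, 6 passed for MEKi and 5 for the combination. With skin and muscle marker levels as covariates in all 15 arrays, 5 passed for MEKi and 2, Il18 and Il33, for the combination. Muscle levels were at least 8.004 in every tumor with MEKi and at most 7.482 in every tumor without it. That fit can therefore hardly tell muscle level and MEKi apart, and calls can be lost in it for that reason alone. Calls over the whole array varied between fits as well. Over the alternative fits, probe sets or genes called ranged from 720 to 9843 for MEKi, beside 7162 in the main fit. For the combination they ranged from 939 to 7613, beside 6450. The member counts of the covariate fits stand without a share of all genes.

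CD40 Ab alone called 0 of the 10 genes, against 1.06% of all genes (1.01% higher and 0.0495% lower), and 1 of 10 in limma, Csf1, had an unadjusted p under 0.05, a share reached by 10.0% of all probe sets. Csf1 was also the 1 member without overlap (7.69% of all genes). The combination differed from CD40 Ab alone in 5 of 10, against 6.22% of all genes. Il18, Csf1, Csf3 and Tnf were higher (3.69% of all genes) and Il33 was lower (2.52%), and 6 of 10 did not overlap (17.4%). Against MEKi alone the combination called 0 of 10, against 4.03% of all genes (1.38% higher and 2.65% lower). In limma 4 of 10 had an unadjusted p under 0.05, against 17.6% of all probe sets: Il1a, Il1b, Il1rn and Tnf, all with lower means in the combination. Of these, 3 did not overlap (19.6% of all genes). The interaction asks whether adding CD40 Ab to MEKi shifted a signal differently from CD40 Ab on its own. It passed for 1 gene, Il1b, with a negative sign, against 4.56% of all genes (2.00% positive and 2.56% negative).

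**Figure D2:**
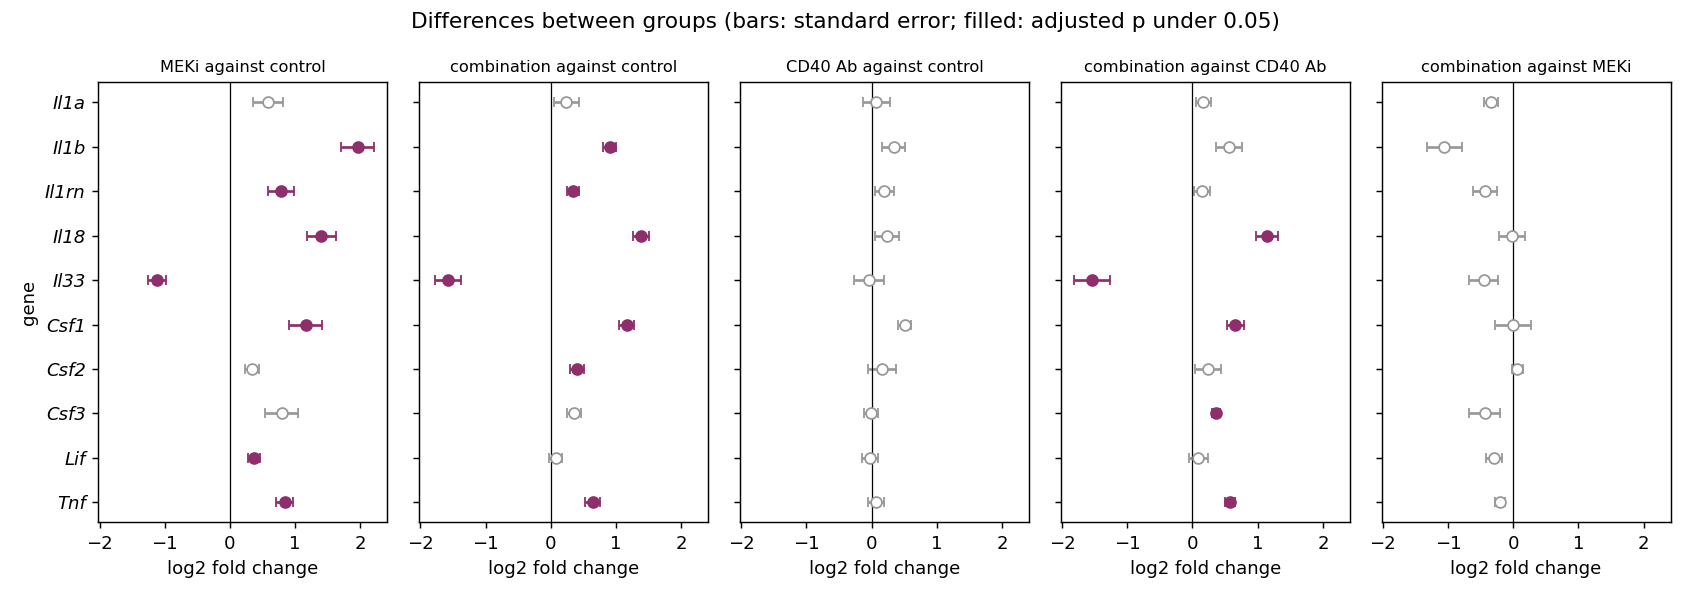
Log2 fold change of each gene (x axis) in 5 comparisons (panels), with the standard error as bars. Filled points passed an adjusted p of 0.05: 7 genes in MEKi and in combination against control, 5 in combination against CD40 Ab, and 0 in the other panels.

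Il1b, the secreted IL-1 ligand of myeloid cells, had signals of 7.31, 7.40, 7.41 and 7.44 in the control tumors and of 8.10, 7.81, 7.89 and 7.12 in the CD40 Ab tumors. MEKi tumors read 9.82, 8.61 and 9.61, and combination tumors read 8.17, 8.60, 8.17 and 8.22. All MEKi tumors lay above all combination tumors, which lay above all CD40 Ab and control tumors. MEKi replicate 2, at 8.61, and combination replicate 2, at 8.60, nearly met. The log2 FC against control was 1.96 ± 0.25 (SE) for MEKi, or 3.88-fold (adjusted p = 0.00220), and 0.90 ± 0.10 for the combination, or 1.87-fold (adjusted p = 0.000576). For CD40 Ab it was 0.34 (95% interval -0.05 to 0.73, adjusted p = 0.570). Combination against MEKi gave -1.06 ± 0.27 (adjusted p = 0.0915), which passed in the fit of all 15 arrays (adjusted p = 0.0190) and without MEKi replicate 2 (log2 FC -1.43, adjusted p = 0.00845). Animal series and treatment cannot be told apart in this pair. The interaction was -1.40 ± 0.34 (adjusted p = 0.0410). It passed in 3 of 15 fits with 1 array left out (without CD40 Ab replicate 4, MEKi replicate 2 or combination replicate 2), and leaving out any other array gave adjusted p up to 0.111. It did not pass with the animal series (-1.68, adjusted p = 0.170), the replicate block (-1.33, adjusted p = 0.0738) or skin and muscle levels (-1.79, adjusted p = 0.0707) in the fit.

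Il1a, the IL-1 ligand that is active without cleavage, lay near the array median. It read 5.26, 4.74, 5.83 and 5.40 in control, 5.18, 5.74, 5.30 and 5.30 in CD40 Ab, 6.00, 5.63 and 6.04 in MEKi and 5.47, 5.61, 5.52 and 5.59 in combination tumors. The control range covered all CD40 Ab and combination values, and its log2 FC of 0.58 ± 0.23 for MEKi did not pass (adjusted p = 0.133). Il1rn, the antagonist, read 9.07, 9.06, 9.36 and 9.45 in control and 9.56, 9.71, 9.10 and 9.36 in CD40 Ab tumors. It read 9.52, 10.14 and 10.38 in MEKi and 9.59, 9.58, 9.61 and 9.53 in combination tumors. Both groups with MEKi lay above every control, with the combination tumors within 0.08 of each other. The log2 FC was 0.78 ± 0.20 for MEKi (adjusted p = 0.0345) and 0.34 ± 0.09 for the combination (adjusted p = 0.0392). These calls were fragile: without 1 array the MEKi call held in 1 of 7 fits, without MEKi replicate 1 (adjusted p up to 0.1003), and the combination call in 2 of 8, without control replicate 3 or 4 (adjusted p up to 0.106). Of the other Il1rn probe sets, 1 of 2 passed for MEKi (log2 FC 0.89 and 0.80) and 0 of 2 for the combination (0.40 and 0.42).

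Of 8 measured genes of IL-1 receptors and signaling, 5 were higher in MEKi than in control tumors: the signaling receptor Il1r1 (log2 FC 0.54 ± 0.10, adjusted p = 0.00906), its partner Il1rap (0.57 ± 0.09), the decoy receptor Il1r2 (1.12 ± 0.17), the adaptor Myd88 (0.53) and the signaling inhibitor Irak3 (0.94). The list median was 0.53. Beside the counts of this and the later lists, the share of all genes higher than control was 10.7% in MEKi, 10.3% in combination and 1.01% in CD40 Ab tumors. In combination tumors 2 of 8 were higher, Myd88 (0.38) and Irak3 (0.90), and the median was 0.13. Without 1 array the Irak3 call held in 3 of 7 fits for MEKi and in 4 of 8 for the combination. Il1r1 ranged from 8.65 to 8.76 in control, 8.45 to 8.85 in CD40 Ab, 9.05 to 9.44 in MEKi and 8.53 to 8.77 in combination tumors, so that only the MEKi group stood apart. Combination against MEKi gave -0.59 for Il1r1 (adjusted p = 0.0317), -0.82 for Il1r2 (adjusted p = 0.0285) and -0.67 for Il1rap (adjusted p = 0.0126). Each held in some of the 7 fits with 1 array left out: 2 for Il1r1, 2 for Il1r2 and 6 for Il1rap. With the animal series as a covariate in all 15 arrays Il1r1 passed (adjusted p = 0.0184), and Il1rap (adjusted p = 0.0573) and Il1r2 (adjusted p = 0.164) did not. The interaction passed for Il1rap (-0.81 ± 0.15, adjusted p = 0.0110, in 15 of 15 such fits, and not with skin and muscle covariates, adjusted p = 0.147), and not for Il1r1 (-0.46) or Il1r2 (-0.77). CD40 Ab alone raised Myd88 by 0.31 (adjusted p = 0.0469), a call lost in each of the 8 fits without 1 array.

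Genes that IL-1 and TNF are known to induce were read as a list of 19, many of which other signals also induce. In MEKi tumors 12 were higher and 1, the collagenase gene Mmp13, was lower (log2 FC -0.68, in 3 of 7 fits without 1 array). The list median was 0.72 beside -0.04 for all genes. The largest differences were those of the chemokine gene Ccl20 (3.60 ± 0.19), the siderophore-binding lipocalin gene Lcn2 (3.41 ± 0.16), the stromelysin gene Mmp3 (2.05), and the chemokine genes Ccl2 (2.02), Cxcl1 (1.85) and Cxcl5 (1.73), with adjusted p from 5.55e-05 to 0.00141. In combination tumors 10 were higher and 0 lower (median 0.61), among them the acute phase gene Saa3 (2.41), the gelatinase gene Mmp9 (2.23), Ccl20 (1.79), Lcn2 (1.73) and Ccl2 (1.63). Mmp9 kept its call in 5 of 8 fits without 1 array. Combination against MEKi had 5 lower, Ccl20 (-1.80), Lcn2 (-1.68), Mmp3 (-1.44), Cxcl1 (-0.99) and Cxcl5 (-0.89), and 14 that did not pass. Of these 5, Lcn2 kept its call in 7 of 7 fits without 1 array, Ccl20 in 5, Cxcl5 in 2, and Cxcl1 and Mmp3 in 1. With the animal series as a covariate in all 15 arrays, 1 of the 5 passed, Cxcl1 (-1.21), and Lcn2 had -1.08 (adjusted p = 0.119) and Ccl20 -0.93 (adjusted p = 0.270). The interaction passed for Lcn2 (-2.25, in 15 of 15 fits without 1 array), Ccl20 (-2.10, in 6 of 15) and Cxcl1 (-0.94, in 4 of 15), and with the animal series as a covariate 0 of the 67 measured pathway genes had an interaction past the threshold. CD40 Ab alone called 0 of 19, and the combination exceeded it in 4: Ccl2 (1.33), Cxcl5 (1.04), Cxcl1 (0.91) and the adhesion gene Vcam1 (0.72). Lcn2 is also a granulocyte and epithelial gene. Mean marker levels of granulocytes, mast cells, keratinocytes, fibroblasts and epithelial tumor cells were likewise highest in MEKi tumors. Their part in these differences was not tested.

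**Figure D3:**
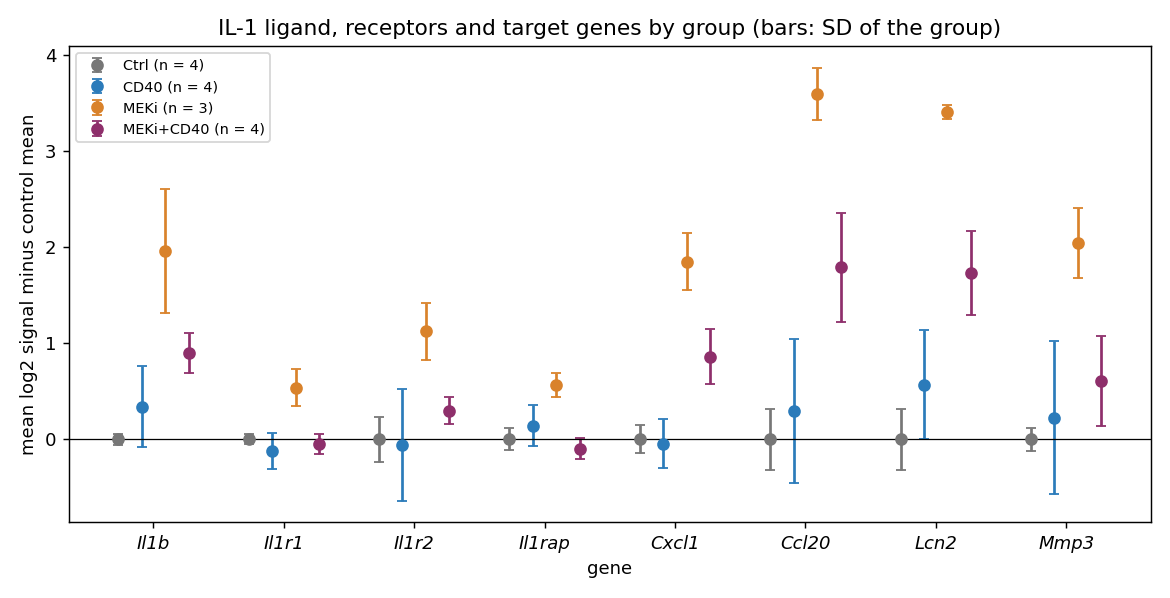
Mean log2 signal of each group minus the control mean (y axis) for Il1b, 3 IL-1 receptor genes and 4 genes induced by IL-1 and TNF (x axis), with the SD of each group as bars. MEKi tumors had the highest mean for each of the 8 genes. The 4 induced genes are among the 5 of the list of 19 that were lower in the combination than in MEKi. Others of that list differed: Saa3, Mmp9, Vcam1, Icam1, Nfkbiz and Nos2 had the highest mean in combination tumors, and Ptgs2 and Mmp13 in control tumors.

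Il18, which acts with interleukin-12 to raise interferon gamma, read 8.36, 8.45, 8.43 and 8.93 in control and 8.34, 8.66, 9.16 and 8.97 in CD40 Ab tumors. It read 9.66, 10.47 and 9.70 in MEKi and 10.06, 9.79, 9.83 and 10.02 in combination tumors. Every tumor with MEKi lay above every tumor without it. The log2 FC was 1.40 ± 0.22 for MEKi (2.64-fold, adjusted p = 0.00471) and 1.38 ± 0.13 for the combination (2.61-fold, adjusted p = 0.000262), and combination against CD40 Ab gave 1.14 ± 0.16 (adjusted p = 0.00736). Combination and MEKi tumors overlapped, with a log2 FC of -0.02 ± 0.20. With skin and muscle levels as covariates Il18 still passed in these first 3 comparisons, at 1.02, 1.58 and 1.45. Keratinocytes and other epithelial cells express Il18. Keratinocyte levels were 5.67, 6.77 and 6.42 in MEKi replicates 1, 2 and 3, and 4.69 to 4.97 in combination tumors. Epithelial tumor cell levels were 10.73 to 11.18 in control, 11.34 to 11.755 in MEKi and 11.20 to 11.41 in combination tumors. Apart from the skin covariate above, the part of these markers was not tested.

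All 3 measured genes of the IL-18 receptor and inhibitor list were higher in both groups with MEKi. Il18r1, the receptor, had a log2 FC of 1.05 in MEKi and 1.32 in combination tumors, and Il18rap, its accessory chain, had 0.52 and 0.61. Il18bp, the secreted inhibitor of IL-18, ranged from 6.28 to 6.82 in control, 7.35 to 8.17 in CD40 Ab, 7.41 to 7.66 in MEKi and 7.73 to 8.51 in combination tumors. It differed from control in each treated group, by 1.11 ± 0.18 for CD40 Ab (adjusted p = 0.0300), 0.95 for MEKi and 1.42 for the combination. The CD40 Ab call held in 2 of 8 fits without 1 array. T cell markers, which mark cells that carry the IL-18 receptor, averaged 5.73 in control, 6.37 in CD40 Ab, 6.51 in MEKi and 7.02 in combination tumors, and their part was not tested.

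Of 6 measured inflammasome genes, 4 were higher in combination tumors, 3 were higher and 1 lower in MEKi tumors, and 1 was higher in CD40 Ab tumors. Casp1, which cuts both cytokines, was 1.23 ± 0.19 higher in the combination (adjusted p = 0.00285) and 0.82 ± 0.23 higher in MEKi (adjusted p = 0.0458, in 1 of 7 fits without 1 array). Casp4, the sensor of cytosolic lipopolysaccharide, was higher in the combination than in control (0.90), in MEKi (0.55) and in CD40 Ab tumors (0.41). Pycard, the adaptor, was 0.99 ± 0.13 higher in CD40 Ab tumors (adjusted p = 0.0223, in 4 of 8 fits without 1 array), 0.79 in MEKi (in 2 of 7 such fits) and 1.08 in combination tumors. The pore-forming Gsdmd had 0.41 in MEKi and 0.50 in combination tumors. The DNA sensor gene Aim2 was lower in MEKi tumors (-0.53) and higher in the combination than in MEKi (0.50). The sensor gene Nlrp3 had 0.30 in MEKi and 0.28 in combination tumors and passed in neither (adjusted p = 0.268 and 0.0542).

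Il33 moved the other way. It read 10.73, 11.03, 10.78 and 10.45 in control, 11.43, 10.69, 10.17 and 10.54 in CD40 Ab, 9.77, 9.49 and 9.61 in MEKi and 8.73, 8.87, 9.58 and 9.49 in combination tumors. Every tumor with MEKi lay below every tumor without it, and MEKi and combination tumors overlapped. It fell by 1.12 on the log2 scale in MEKi tumors (SE 0.14, 2.18-fold lower, adjusted p = 0.00167) and by 1.58 in combination tumors (SE 0.20, 2.99-fold lower, adjusted p = 0.00112). Combination against CD40 Ab gave -1.54 ± 0.28 (adjusted p = 0.0182). The MEKi value was -0.69 (adjusted p = 0.120) with the animal series as a covariate in all 15 arrays and -0.45 (adjusted p = 0.457) with skin and muscle covariates, whereas the combination value stayed at -1.72 and -1.47 and passed in both. Combination against CD40 Ab lost its call with those tissue covariates (adjusted p = 0.101), under the replicate block (adjusted p = 0.0690) and without CD40 Ab replicate 2 or combination replicate 2 (adjusted p up to 0.0557). Over the 15 arrays, whose groups differ in both genes, Il33 and Il18 had a Pearson r of -0.91. Il1rl1, the receptor of IL-33, was not analysed here.

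**Figure D4:**
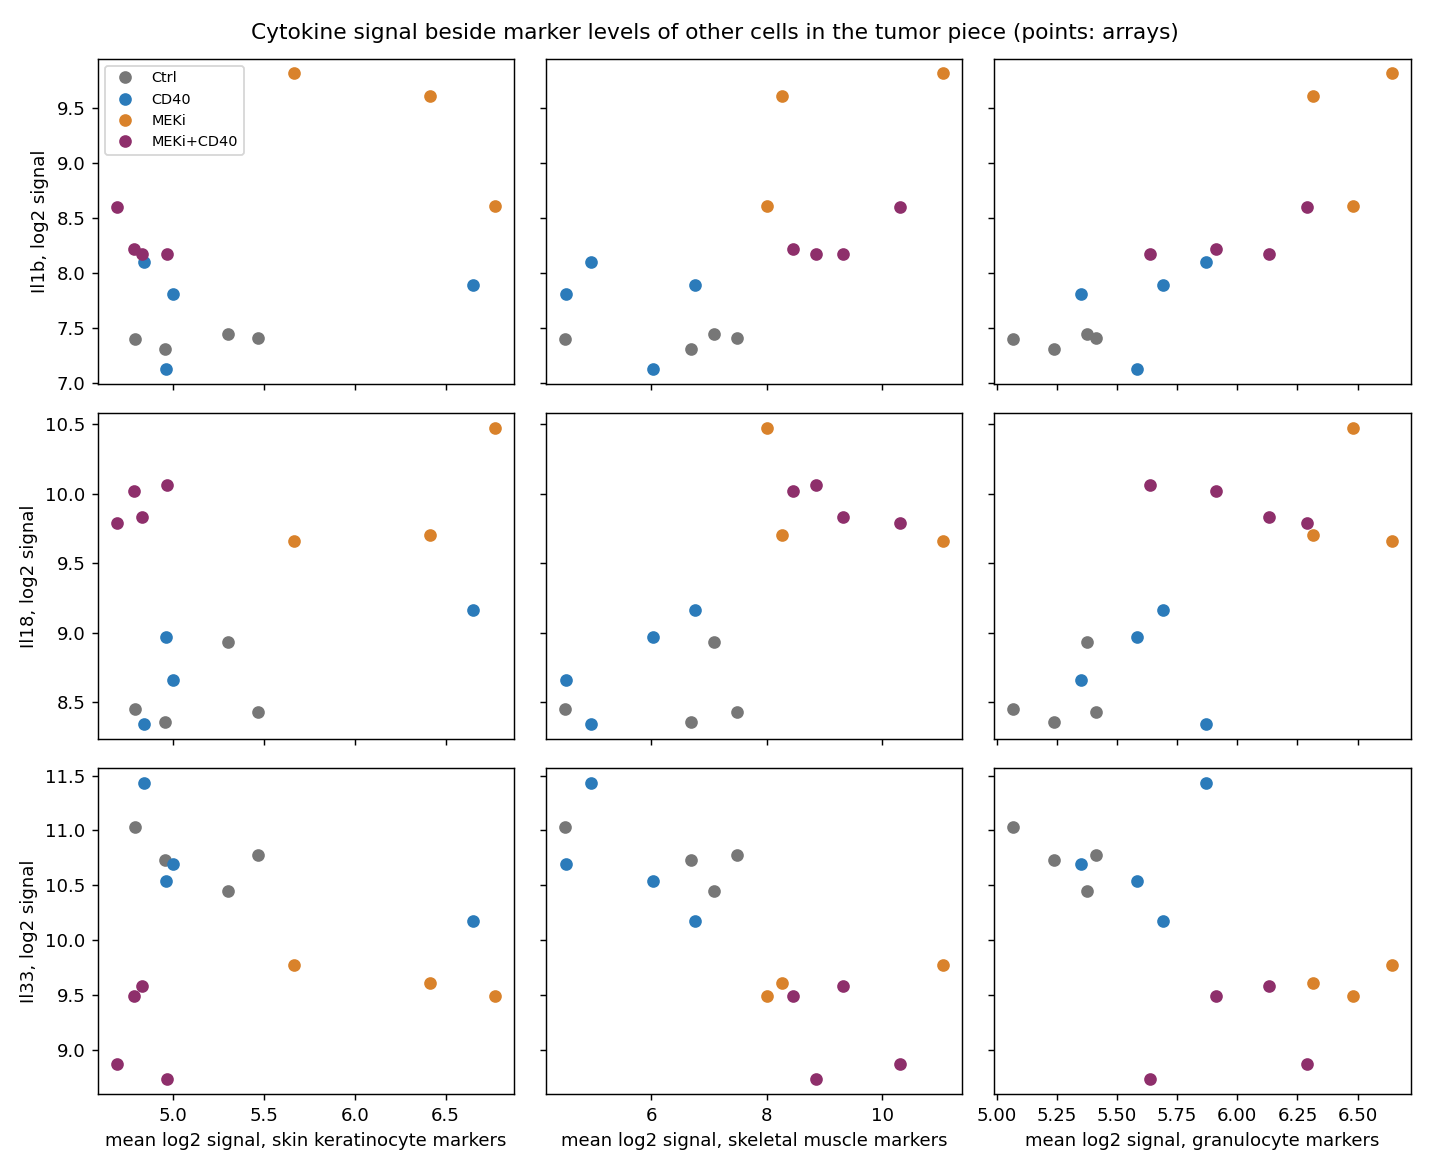
Log2 signal of Il1b, Il18 and Il33 (rows, y axes) against the mean log2 signal of keratinocyte, skeletal muscle and granulocyte markers (columns, x axes) in each of the 15 arrays, colored by group. Muscle levels were above 8 in every tumor with MEKi, where Il18 was high and Il33 low, while keratinocyte levels of MEKi and combination tumors did not overlap.

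Csf1, the growth factor of macrophages, read 7.24, 7.33, 7.16 and 7.41 in control and 7.99, 7.56, 7.79 and 7.83 in CD40 Ab tumors. It read 9.17, 7.93 and 8.24 in MEKi and 8.67, 8.50, 8.12 and 8.51 in combination tumors. Control lay below each treated group, and the combination lay above CD40 Ab without overlap. The log2 FC was 1.16 ± 0.26 for MEKi (adjusted p = 0.0191), 1.17 ± 0.11 for the combination (adjusted p = 0.000357) and 0.51 ± 0.10 for CD40 Ab (adjusted p = 0.0529). The CD40 Ab value passed in 4 alternatives, among them median centring (adjusted p = 0.0330), and without CD40 Ab replicate 2 (adjusted p = 0.0240). The MEKi call was lost without control replicate 1, 2 or 3 (adjusted p up to 0.0560). Combination against CD40 Ab gave 0.66 ± 0.13 (adjusted p = 0.0242), a call kept in 2 of 8 fits without 1 array, without CD40 Ab replicate 1 or combination replicate 3 (adjusted p up to 0.0684), and with skin and muscle covariates it was -0.04. The other 3 Csf1 probe sets gave 0.19, 0.54 and 0.77 for the combination, of which the last 2 passed, and 0.18, 0.40 and 0.87 for MEKi, of which the last passed. In the same order they gave 0.02, 0.16 and 0.34 for CD40 Ab and 0.17, 0.38 and 0.435 for combination against CD40 Ab. None of these values passed, and the groups overlapped in each, unlike in the brightest probe set.

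Csf2, the gene of granulocyte-macrophage colony stimulating factor, and Csf3, that of granulocyte colony stimulating factor, were close to or under the median of all probe sets on each array, except for Csf3 in MEKi replicate 2. Csf3 lay above that median in 0 of 4 control and 0 of 4 CD40 Ab arrays, with mean differences from it of -0.38 and -0.40. Csf2 lay above it in 1 of 4 control and 2 of 4 CD40 Ab arrays. Csf2 read 4.95, 4.84, 5.22 and 4.77 in control, 5.49, 5.56, 4.69 and 4.68 in CD40 Ab, 5.33, 5.29 and 5.23 in MEKi and 5.28, 5.46, 5.22 and 5.42 in combination tumors. CD40 Ab tumors fell into a high pair, both of the lower animal series, and a low pair, both of the upper series, that together spanned all other groups. The part of the series in this split was not tested. The combination call (0.40 ± 0.10, adjusted p = 0.0302) held in 2 of 8 fits without 1 array, without control replicate 3 or combination replicate 3 (adjusted p up to 0.0797), and the MEKi value of 0.34 did not pass (adjusted p = 0.0780). Csf3 read 4.73, 4.56, 5.09 and 4.82 in control, 4.72, 4.85, 4.81 and 4.78 in CD40 Ab, 5.43, 6.26 and 5.08 in MEKi and 5.13, 5.05, 5.24 and 5.18 in combination tumors. MEKi replicate 2 was the highest of all. Combination against CD40 Ab passed (0.36 ± 0.06, adjusted p = 0.0177), while combination (0.35, adjusted p = 0.0553) and MEKi (0.79 ± 0.26, adjusted p = 0.0759) against control did not. Without MEKi replicate 2 the MEKi value was 0.455. In the fit of all 15 arrays the call against CD40 Ab was lost (adjusted p = 0.279), as it was under the replicate block (adjusted p = 0.0645), and that of MEKi was made (adjusted p = 0.0101).

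Of 7 measured receptors and related ligands, 5 were higher and 1 lower in combination tumors (median 0.77): the beta chains Csf2rb (1.21 ± 0.17, adjusted p = 0.00171) and Csf2rb2 (1.08), the alpha chain Csf2ra (1.10), the CSF-1 receptor gene Csf1r (0.77, in 3 of 8 fits without 1 array) and the G-CSF receptor gene Csf3r (0.75). None of these 5 passed with skin and muscle levels as covariates, and the values were 0.72, 0.73, 0.61, 0.06 and 0.16 in the same order. In MEKi tumors 3 were higher, Csf3r (1.40 ± 0.23, adjusted p = 0.00627), Csf2rb (1.07) and Csf2rb2 (0.66, in 1 of 7 fits without 1 array), and 2 were lower. Kitl, the ligand of the mast and stem cell receptor KIT, was lower in MEKi (-0.69), in combination (-0.81), and in the combination against CD40 Ab (-0.90). Il34, a further ligand of the CSF-1 receptor, was lower in MEKi tumors (-0.30) and higher in the combination than in MEKi (0.50), calls that held in 2 of 7 and 1 of 7 fits without 1 array. Neither passed with the animal series in the fit of all 15 arrays (adjusted p = 0.220 and 0.122). CD40 Ab alone called 0 of 7, with a median of 0.47 beside 0.00 for all genes and 5 of 7 not overlapping (7.69% of all genes). Receptor genes mark the myeloid cells that carry them. Macrophage markers were higher in 7 of 9 for the combination (10.3% of all genes), 5 of 9 for CD40 Ab (1.01%) and 0 of 9 for MEKi (10.7%). Their part was not tested.

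Lif read 6.45, 6.52, 6.69 and 6.59 in control, 6.54, 6.91, 6.34 and 6.38 in CD40 Ab, 6.91, 6.79 and 7.09 in MEKi and 6.55, 6.49, 6.56 and 6.94 in combination tumors. MEKi tumors lay above all controls, and the other groups overlapped them. The MEKi log2 FC of 0.37 ± 0.10 (adjusted p = 0.0361) held in 2 of 7 fits without 1 array, without control replicate 3 or MEKi replicate 2 (adjusted p up to 0.0992), and the second Lif probe set gave 0.10. The combination had 0.07 (adjusted p = 0.694). Of 9 genes of the LIF and IL-6 family, 2 were higher in MEKi and 2 in combination tumors: the shared receptor chain Il6st (0.52 and 0.62) and the oncostatin M receptor gene Osmr (1.03 and 0.75). The MEKi call of Il6st held in 2 of 7 fits without 1 array. Lifr, the specific receptor chain of LIF, was lower in combination tumors (-0.58 ± 0.06, adjusted p = 0.000649) and had -0.22 in MEKi tumors (adjusted p = 0.476). Il6 had log2 FC of 0.83 for CD40 Ab, 0.86 for MEKi and 0.57 for the combination, and oncostatin M (Osm) had 0.13, 0.31 and 0.15, none of which passed. Il6 signals lay between 2.80 and 5.08, below the array median in every tumor.

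Tnf read 5.88, 5.31, 5.74 and 5.81 in control, 5.61, 5.71, 5.84 and 5.86 in CD40 Ab, 6.54, 6.48 and 6.55 in MEKi and 6.26, 6.40, 6.40 and 6.24 in combination tumors. The 3 MEKi values lay within 0.07 of each other and above all combination values, which lay above every tumor without MEKi. The log2 FC was 0.84 ± 0.13 for MEKi (1.79-fold, adjusted p = 0.00518), 0.64 ± 0.12 for the combination (1.56-fold, adjusted p = 0.00686) and 0.57 ± 0.08 for combination against CD40 Ab (adjusted p = 0.00623). For CD40 Ab it was 0.07 (95% interval -0.20 to 0.34), and for combination against MEKi -0.20 (adjusted p = 0.225). With skin and muscle covariates the combination values were 0.42 (adjusted p = 0.120) and 0.28 (adjusted p = 0.539).

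Of 10 measured genes of the TNF pathway, 7 were higher in combination and 5 in MEKi tumors, with medians of 0.54 and 0.46. In that order Ltb, encoding lymphotoxin beta, had a log2 FC of 2.22 and 2.40. Birc3, an inhibitor of cell death in TNF signaling, had 0.88 ± 0.07 and 0.68 ± 0.10, Tnfaip3, the A20 brake on NF-kB, 0.77 and 0.62, and Nfkbia, the NF-kB inhibitor, 0.64 and 0.64. The receptor gene Tnfrsf1a was higher in both (0.44 and 0.80) and was the only one of the 10 with an interaction past the threshold (-0.49, adjusted p = 0.0239). Tnfrsf1b passed for the combination (0.76) but not for MEKi (0.29, adjusted p = 0.102). Combination against CD40 Ab had 5 higher, Ltb (1.41), Birc3 (0.77), Tnfaip3 (0.70), Nfkbia (0.56) and Tnfrsf1b (0.56). Of these 5, 1 passed with skin and muscle levels as covariates, Tnfaip3 (0.81, adjusted p = 0.0168), and Ltb changed sign to -0.06 (adjusted p = 0.973). CD40 Ab alone raised Ltb (0.81, adjusted p = 0.0449), a call kept in 1 of 8 fits without 1 array. Over all 67 measured pathway genes, calls that held whichever 1 array was left out were 31 of 36 in combination and 28 of 39 in MEKi against control, 8 of 16 in combination against CD40 Ab, 1 of 12 in combination against MEKi, 0 of 4 in CD40 Ab against control and 2 of 5 in the interaction. Of the 36 calls in combination against control, 7 remained with skin and muscle levels as covariates, Il18r1, Casp4, Lifr, Birc3, Tnfaip3, Vcam1 and Lcn2. Of the 39 calls in MEKi against control 18 remained, and of the 16 in combination against CD40 Ab 1. Muscle levels of tumors with and without MEKi did not overlap, so muscle level and MEKi can hardly be told apart in these fits.

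For each member, the genes whose signal was most like it over the 15 arrays, by Pearson r, were sought as a description. They were Iscu (0.97), Ffar2 (0.96) and Chst15 (0.96) for Il1b, Slc9a2 (0.94), Apoo (0.90) and Dhrs13 (0.89) for Il1rn, and Pitpnc1 (0.89), Slc11a2 (0.85) and Eya2 (0.85) for Il1a. For Il18 they were Tfcp2l1 (0.99), Ggt6 (0.98) and Cbr3 (0.98), and for Il33 Ank (0.96), Tasp1 (0.93) and Osbpl6 (0.93). For Csf1 they were Ctsb, Lactb and Hivep3 (each 0.96), for Csf2 Klf10 (0.86), Fndc4 (0.84) and Klra17 (0.80), and for Csf3 Lypd6 (0.92), Ltf (0.91) and Zc3h12a (0.91). For Lif they were Pitpnc1 (0.89), Gcnt2 (0.87) and Junb (0.87), and for Tnf Ces2g (0.96), Clic5 (0.96) and Tmc5 (0.95). The arrays share the treatment groups, and with group means removed these values lay between 0.54 (Il33 with Osbpl6) and 0.95 (Il18 with Tfcp2l1). Among the members, Il18 and Tnf (0.87) had the highest r, and Il1b followed Tnf (0.79) and Csf1 (0.79).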

How the data were processed

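Total RNA of 15 tumors was labelled with a 3' IVT kit from 200 ng (RIN at least 8) and hybridized to 1 mouse 3' expression array each. The authors summarized each probe set by robust multi-array average (RMA; sources used here give no version) and deposited the signals on a log2 scale. Of 45101 probe sets, 64 controls were left out and 45037 tested. Symbols came from the platform annotation (34945 probe sets with 1 symbol, 932 with several, 9160 with none), and Il36a, Il36b and Il36g were matched through RefSeq synonyms. Of the 73 pathway and 83 marker list genes, 67 and 77 were measured.

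Groups, taken from the sample labels, were tested by limma (version 3.58.1, R 4.3.3; lmFit and eBayes, two-sided, on the arrays of both groups, or on all 15 for the interaction), with p-values adjusted by Benjamini-Hochberg across the probe sets tested, a threshold of 0.05 and no fold minimum. Fits were tested on simulated data. The number of arrays limits the precision. Replicates are tumors of separate mice. Named genes were the members, passing pathway genes (up to 6 by log2 FC per list and comparison), receptors and related ligands given whatever their values, and the 3 genes most like each member. Members and lists were chosen with earlier results of these data known. The alternatives were other fits, filters, summaries, a replicate block, the animal series, tissue covariates and leaving out each array.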

Additional observations from a re-analysis of the deposited data

Results flagged for a closer look

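Among the 63 groups of 4 arrays tested for a value that stands apart from the rest, of which chance flags about 1 in 20, 6 were marked. Il1b was 8.60 in combination replicate 2, against 8.17 to 8.22 in the other 3 combination tumors, and the same tumor had a T cell marker level of 7.66 against 6.77 to 6.85. Il18 was 8.93 in control replicate 4 against 8.36 to 8.45, and that tumor, the control of the upper animal series, also had the lowest endothelial marker level (6.16 against 6.35 to 6.36). Lif was 6.94 in combination replicate 4 against 6.49 to 6.56, and without it the log2 FC of Lif in combination against control was -0.03 in place of 0.07. The keratinocyte marker level was 6.65 in CD40 Ab replicate 3 against 4.84 to 5.00, and this tumor had the highest Il18 (9.16) and the lowest Il33 (10.17) of its group.

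The Il1b interaction, which sets the difference between combination and MEKi tumors against that between CD40 Ab and control tumors, was -1.40 (adjusted p = 0.0410), with a lower mean in the combination than in MEKi tumors and a higher mean in CD40 Ab than in control tumors. The call was lost in 12 of 15 fits without 1 array, and with the animal series (adjusted p = 0.170), the replicate block (adjusted p = 0.0738) or skin and muscle levels (adjusted p = 0.0707) in the fit. Granulocyte marker levels averaged 5.27 in control, 5.62 in CD40 Ab, 6.48 in MEKi and 5.99 in combination tumors, the same order as Il1b, and their part in it was not tested. Camp and Ngp of that marker list did not rise in MEKi against control.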

How the results depend on the processing

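Il1b, Il18, Il33 and Tnf kept their calls for MEKi and for the combination against control in every fit without 1 array. With 1 array left out, members called were 5 to 8 for combination and 4 to 6 for MEKi against control, 0 to 1 for CD40 Ab against control, 0 to 2 for combination against MEKi, 3 to 5 for combination against CD40 Ab and 0 to 1 for the interaction. Pathway genes called, 36, 39, 4, 12, 16 and 5 in that order, were 31 to 38, 30 to 40, 0 to 3, 1 to 12, 10 to 14 and 2 to 10. Members called with skin and muscle covariates were 2 for combination against control, 1 for combination against CD40 Ab and 0 for the interaction, and pathway genes called were 7 for combination and 18 for MEKi against control, 7 for combination against MEKi and 1 for combination against CD40 Ab. With the animal series as a covariate in the arrays compared, 0 members and 7 pathway genes were called for MEKi against control and 0 members and 0 pathway genes for the interaction. With the series in all 15 arrays, an alternative chosen after seeing the data, 3 members were called for combination against CD40 Ab, and 0 pathway genes for CD40 Ab against control and 4 for combination against MEKi. In the lower series alone 3 members and 10 pathway genes were called for combination against CD40 Ab and 1 pathway gene for CD40 Ab against control. In 1 fit of all 15 arrays 1 member was called for combination against MEKi, 3 for combination against CD40 Ab, and 1 pathway gene for CD40 Ab against control. Csf1 made 1 member for CD40 Ab with an intensity trend and robust prior (7 pathway genes), median centring, dim probe sets left out, or 1 probe set per gene. The interaction called 8 pathway genes after centring and with probe sets averaged, and 9 with dim probe sets left out or 1 probe set per gene. The series covariate could not be fitted to combination against MEKi alone. Calls over the whole array also varied between the alternatives. Probe sets or genes called ranged from 200 to 2706 for combination against CD40 Ab (2019 in the main fit). They ranged from 180 to 3663 for combination against MEKi (1264) and from 84 to 1730 for the interaction (1441).

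Deviations of same-numbered arrays from their group means correlated between -0.28 and 0.21, above 0.1 in 9 of 21 pairs. Those of differently numbered arrays correlated between -0.25 and 0.22, above 0.1 in 14 of 63 pairs. These values do not decide whether replicate numbers pair the samples, and the main fits used no pairing. With the replicate block, 3 members were called for combination against CD40 Ab (10 pathway genes) and 0 for the interaction, 2 pathway genes were called for combination against MEKi, and Csf1 had -0.017 there.

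Of the member values that changed sign, 1 had been called, Csf1 in combination against CD40 Ab. Of the called pathway genes, 5 changed sign, each with skin and muscle covariates: Il1rl2 in combination against control (-0.13) and, in combination against CD40 Ab, Csf2ra (-0.054), Csf3r (-0.25), Osmr (-0.018) and Ltb (-0.063). With skin and muscle covariates Il1a had -0.065 in combination against control, Il18 0.56, Csf1 -0.44 and Csf2 -0.23 in combination against MEKi, Il1a -0.23 and Csf1 -0.042 in combination against CD40 Ab, and Il18 0.43 in the interaction. With the series covariate, in either fit, CD40 Ab against control gave Il33 0.10 and Lif 0.028, and the lower series alone gave 0.21 and 0.17. The series covariate and the lower series gave Il1rn -0.0575, Csf2 -0.18 and Lif -0.09 in combination against CD40 Ab, and the covariate Il18 0.42 in the interaction. The covariate in all 15 arrays gave Il18 0.53 and Csf2 -0.52 in combination against MEKi, and Csf2 -0.05 and Lif -0.0039 in combination against CD40 Ab. Averaged probe sets gave Lif 0.0775 for CD40 Ab and -0.0525 in combination against CD40 Ab, and centring gave Csf1 -0.025 in combination against MEKi. Without 1 array, the ranges that crossed 0 were Lif -0.029 to 0.12 in combination against control; Il1a -0.12 to 0.25, Il33 -0.28 to 0.14, Csf3 -0.09 to 0.087, Lif -0.14 to 0.0475 and Tnf -0.055 to 0.14 for CD40 Ab; Il18 -0.16 to 0.25 and Csf1 -0.26 to 0.37 in combination against MEKi; Lif -0.0092 to 0.22 in combination against CD40 Ab; and Il18 -0.41 to 0.005 and Csf2 -0.24 to 0.053 in the interaction. The cause of these changes was not tested.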

Other observations

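The remaining IL-1 family genes include the IL-36 cytokines and their receptor chain, which are prominent in skin. Of 5 measured, Il1rl2, the IL-36 receptor gene, ranged from 5.26 to 5.49 in control, 4.84 to 5.67 in CD40 Ab, 6.44 to 7.66 in MEKi and 5.66 to 5.90 in combination tumors. It was higher in MEKi tumors (log2 FC 1.60 ± 0.25, adjusted p = 0.00437) and in combination tumors (0.39 ± 0.08, adjusted p = 0.00988) and lower in the combination than in MEKi (-1.21 ± 0.25, adjusted p = 0.0465). With skin and muscle covariates the combination value was -0.13 and that of MEKi 1.25. Il36a had 0.77 ± 0.21 in MEKi tumors (adjusted p = 0.0417, in 1 of 7 fits without 1 array), at signals between 3.82 and 4.79 that are below the array median. Il36b, Il36g and Il1f10 passed in none of the 6 comparisons. The mean level of keratinocyte markers ranged from 5.67 to 6.77 in MEKi and from 4.69 to 4.97 in combination tumors.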
